A study of Saccharomyces cerevisiae with 4 samples.

Results

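The small ribosomal subunit protein genes of budding yeast, Saccharomyces cerevisiae, were examined for peaks of the chromatin protein Swc4. Members were the nuclear protein-coding genes of assembly R64 whose symbol is RPS, a number and an optional A or B. The rule found 56 genes among 6002 nuclear protein-coding genes with a known strand. Of these, 48 form 24 pairs of duplicated genes (copies A and B) and 8 are single-copy genes. Swc4 with 13 copies of the myc tag was mapped by chromatin immunoprecipitation and sequencing (ChIP-seq) in untreated haploid BY cells, grown in 50 ml of rich YPD medium to mid-log phase. The tag and the myc antibody were common to all 4 libraries. The wild-type group and the yaf9d group, whose titles name a deletion of YAF9, have 2 libraries each. Nothing in the labels ties a library to its own culture, so the spread within a group may be technical. No input, untagged or mock sample was used here.

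Swc4 and Yaf9 each belong to a pair of chromatin complexes, the NuA4 histone acetyltransferase and the SWR1 remodeler, which places the histone variant H2A.Z next to promoters. The RPS genes encode the proteins of the small ribosomal subunit, which reads the messenger RNA. They are among the most heavily transcribed genes of growing yeast, and most are activated by Rap1 together with Fhl1 and Ifh1. NuA4 is known to be recruited to ribosomal protein promoters during growth.

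Each deposited list holds the peaks called in that library alone. Nuclear peaks numbered 616 to 1139 per list, with a median of the authors' fold between 1.80 and 2.503. The fold is the ratio of the signal at the summit, the highest point of a peak, to a local background. It describes and ranks peaks within a list and was not tested between lists. Read totals do not come with the lists. Whole-number read pileups at the summit, recovered from fold and p-value, had medians of 126 to 146 per list. Wild-type replicate 2 stood apart by its peak width, with a median of 611.5 bp against 407 to 447.5 bp in the other lists. Absence of a call does not show that a gene is free of Swc4.

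Counted by overlap, a peak over the promoter was the usual state of an RPS gene in both genotypes. The promoter was taken as the 500 bp upstream of the coding start, and an overlap of 1 bp counted. A summit within the promoter was less common, at 50% and 44.6% of RPS genes in wild-type and 51.8% and 50% in yaf9d. Over all genes that share was 4.85% to 6.13%. In wild-type replicate 1, 35 of 56 RPS promoters (62.5%) had a peak, against 15.9% of all nuclear protein-coding genes. In wild-type replicate 2 the number was 40 (71.4%), against 14.3%. In yaf9d replicate 1 it was 38 (67.9%), against 11.2%, and in yaf9d replicate 2 it was 36 (64.3%), against 13.6%. The genotype means were 37.5 ± 3.54 genes in wild-type and 37 ± 1.41 in yaf9d (SD, n = 2 each). The difference was smaller than the spread between replicates (exact two-sided permutation p = 1). With 2 libraries against 2, the smallest p this test allows is 0.333, so no genotype difference could pass 0.05.

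**Figure D1:**
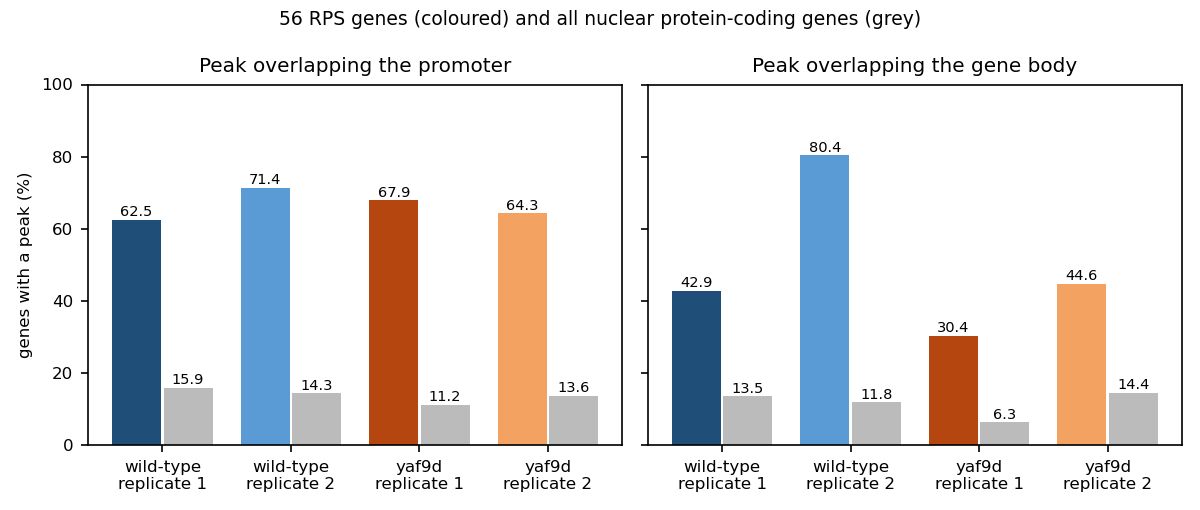
Percent of genes with a peak overlapping the promoter (left) or the gene body (right) in each library, for the 56 RPS genes (coloured bars) and for all 6002 nuclear protein-coding genes (grey bars). The promoter bars of the RPS genes lie between 62.5% and 71.4% in the 4 libraries, and the gene body bars range from 30.4% to 80.4%.

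Promoter calls in every library were more common among RPS genes than over all genes, and calls in none were less common. A promoter peak was called in all 4 libraries at 33 of 56 genes (58.9%), against 4.83% of all genes, and in none at 13 (23.2%), against 74.0% of all genes. The other 10 had it in 1, 2 or 3 libraries. Genes that had a promoter peak in both wild-type libraries and neither yaf9d library numbered 0, against 3.23% of all genes, and 0 showed the reverse, against 1.50%. Without wild-type replicate 2, the count with a peak in every list stayed at 33 and the count with none was 16. Among duplicated genes 31 of 48 had a promoter peak in all 4 libraries and 9 of 48 in none. Among single-copy genes the counts were 2 of 8 and 4 of 8.

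**Figure D2:**
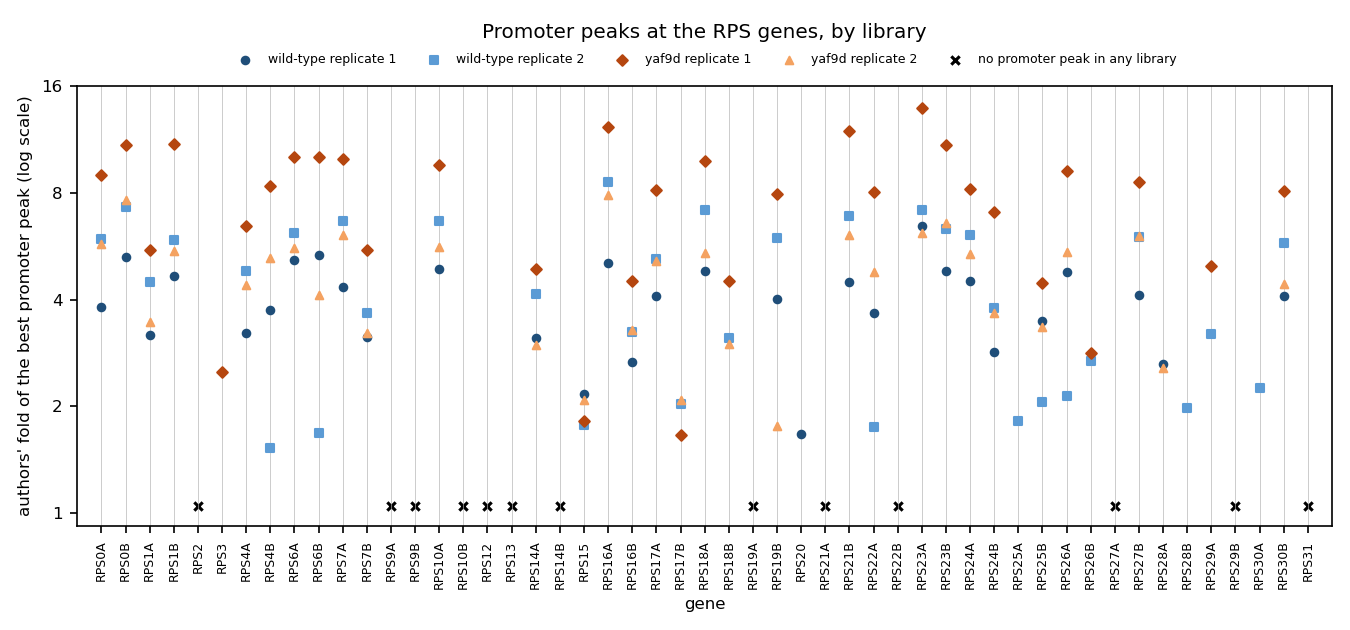
The authors' fold of the best promoter peak (vertical log axis, highest fold where several peaks overlap) for 51 RPS genes in each library, with crosses for the 13 genes that have no promoter peak in any library. Points missing for a gene mark libraries without a call, and RPS23A and RPS16A in yaf9d replicate 1 are the highest points plotted, at 13.8 and 12.2.

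RPS16A and RPS0B were among the genes with the best mean rank over the 4 lists. RPS16A, for a protein of the subunit head whose tail reaches the tRNA sites, had folds of 5.08 (wild-type replicate 1), 8.58 (wild-type replicate 2), 12.2 (yaf9d replicate 1) and 7.89 (yaf9d replicate 2). The pileups behind them were 212, 326, 452 and 347 reads, and the peaks ranked 15, 2, 6 and 2 in their lists. In each list the summit of this peak lay nearer to the neighbouring gene RPL13B than to RPS16A. In yaf9d replicate 1 the peak lay on chromosome XIII from 551183 to 551936 in the coordinates of the deposited list, whose build is not given in the sources used here. RPS0B, for a protein needed to mature the subunit, had folds of 5.27, 7.28, 10.9 and 7.65 in the same library order (chromosome XII, 241724 to 242224 in yaf9d replicate 1). RPS0B ranked between 3 and 12 in each list. RPS23A, for a protein of the decoding centre, had 6.45, 7.14, 13.8 and 6.17 (chromosome VII, 726461 to 727012). Its second copy RPS23B had 4.83, 6.32, 10.9 and 6.58 (chromosome XVI, 794523 to 795003). Both copies of this gene were therefore among the best-ranked RPS genes.

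RPS21B, RPS7A and RPS6A also ranked among the first 8 RPS genes. RPS21B had folds of 4.47, 6.90, 11.9 and 6.07 (chromosome X, 157276 to 157780). In yaf9d replicate 2 the deposited −log10 q-value of that peak was 6.60, against 54.5, 123 and 282 in the other lists, and no whole-number pileup matched its listed fold and p-value. Its call there rests on the list as deposited. RPS7A had 4.35, 6.68, 9.93 and 6.09 (chromosome XV, 505200 to 505727). RPS6A, for the protein phosphorylated downstream of the TORC1 growth pathway, had 5.16, 6.15, 10.1 and 5.60 (chromosome XVI, 378467 to 378968). Each of these 7 genes had its highest fold in yaf9d replicate 1, the list that also had the highest median fold over all peaks. Of the 20 highest folds of each list, 8, 9, 11 and 6 were promoter peaks of RPS genes. These are counted by overlap, and not each of them has its summit in the promoter. Peaks with a summit in an RPS promoter numbered 28 of 884, 25 of 704, 29 of 616 and 28 of 1139 in the whole lists. The count among the highest folds was not made for large subunit genes.

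The order of the genes was similar in the 4 lists. It was read from the 22 genes whose best promoter peak had its summit in the promoter in every library. Their folds ran from 2.66 to 6.45 in wild-type replicate 1, 3.25 to 9.03 in wild-type replicate 2, 4.50 to 14.0 in yaf9d replicate 1 and 2.99 to 7.89 in yaf9d replicate 2. Across these 22 genes Spearman's rho between 2 lists lay between 0.825 (wild-type replicate 1 with yaf9d replicate 2) and 0.902 (the yaf9d libraries). The wild-type libraries gave 0.898. These values are across genes, which are not replicates, and the lists share the tag, the antibody and the genome.

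Summit positions are described for the same 22 genes. Keeping only genes with all 4 summits in the promoter limits how far a summit can move, and genes whose summit left the promoter in a library are not among them. RPS19B, for example, ranged from 238 to 868 bp upstream. The median summit of these 22 genes was found between 151 and 495 bp before the coding start, with a median of 218.5 bp, and 19 of 22 lay between 150 and 300 bp. The 4 summits of a gene spanned 6 to 58 bp, with a median of 22 bp, and 18 of 22 genes stayed within 30 bp. RPS0B had summits 246, 248, 242 and 246 bp upstream, a span of 6 bp. RPS1A, for a protein of the platform, was the widest, with 148, 172, 154 and 114 bp. Over every RPS gene with a promoter peak, the median summit lay 235 and 211.5 bp upstream in wild-type and 242.5 and 233.5 bp in yaf9d. With upstream positions negative, the genotype difference was -14.75 bp, smaller than the SD of 16.6 bp in wild-type (n = 2; exact permutation p = 0.667). It was -3 bp without wild-type replicate 2, -26.5 bp without wild-type replicate 1 and -2 bp when only summits in the promoter counted.

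Peaks at RPS genes differed by where the summit lay. Peaks with a summit in the promoter had folds of 2.26 to 14.0, and peaks with a summit in the gene body had folds of 1.31 to 2.64. Summits lay in the promoter at 28 and 25 RPS genes in wild-type and at 29 and 28 in yaf9d, in replicate order. The same measure held for 5.86%, 4.85%, 5.68% and 6.13% of all genes. Their median fold was 4.23, 5.98, 8.57 and 5.40, and their median rank was within the first 5.19% of each list. Summits lay in the body at 16, 22, 5 and 21 genes, which is 28.6%, 39.3%, 8.93% and 37.5% of the 56, against 10.5%, 6.88%, 3.57% and 12.1% of all genes. Their median fold was 1.62, 1.78, 1.37 and 1.87. At 6, 4, 8 and 6 genes the best promoter peak had its summit more than 500 bp upstream, and in wild-type replicate 2 that of 1 gene lay downstream of it.

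The body summits had a higher local background than the promoter summits. Their median pileup was 333.5, 242.5, 227 and 342 reads in the same order, over median backgrounds of 229, 140, 172 and 186. At the promoter summits the median pileup was 177.5, 231, 328 and 243, over backgrounds of 38.9, 36.7, 34.5 and 45.2. In the 21 cases, from 10 genes, in which a gene had both kinds of peak in 1 library, the promoter fold was the higher in 21. Body summits lay at a median of 57.4% to 64.8% of the way from the coding start to the end of the gene. The coding sequences of duplicated genes can be nearly identical, and how the authors placed reads that match both copies is not given in the sources used here.

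**Figure D3:**
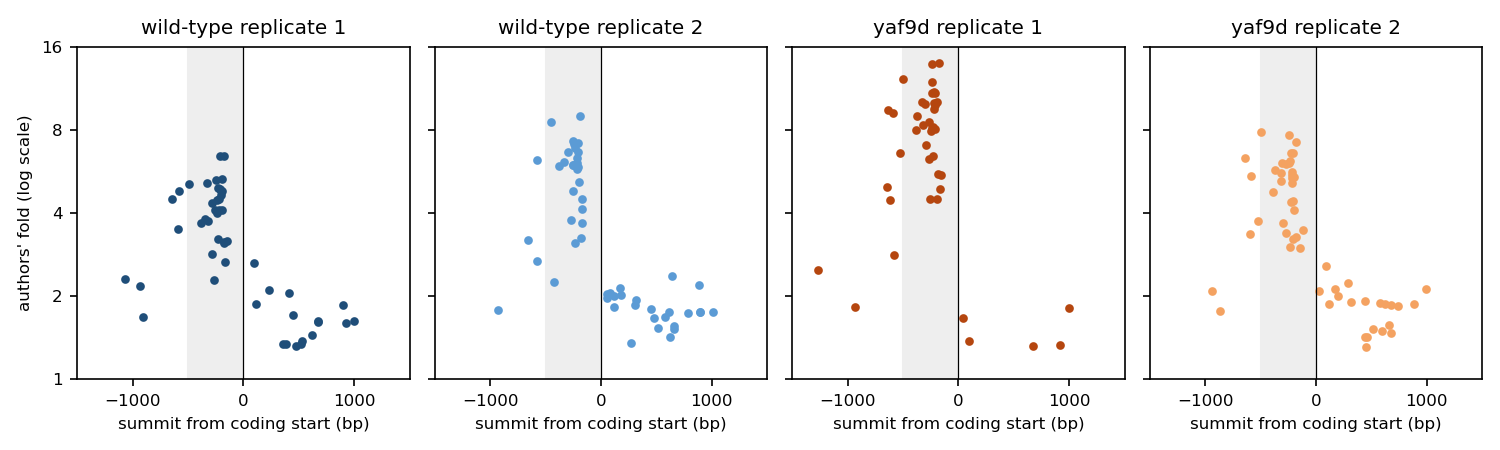
Position of each peak summit relative to the coding start (horizontal axis, bp, upstream negative) and the authors' fold (vertical log axis) for peaks overlapping the promoter or body of an RPS gene, with 1 panel per library and the promoter shaded. Points in the promoter reach 6.45, 9.03, 14.0 and 7.89, and points inside genes stay at or below 2.64.

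Counts of gene body peaks varied more between libraries than those of promoter peaks. A peak overlapped the body at 24 and 45 RPS genes in wild-type (42.9% and 80.4%), against 13.5% and 11.8% of all genes. In yaf9d it did so at 17 and 25 (30.4% and 44.6%), against 6.30% and 14.4% of all genes. Wild-type averaged 34.5 ± 14.8 genes and yaf9d 21 ± 5.66 (SD, n = 2). Their difference, -13.5 genes, was smaller than the wild-type SD (exact permutation p = 0.667). Without wild-type replicate 2, the list of wide peaks, the difference was -3 genes. Some recurring body summits kept their place and others did not. RPS9A and RPS9B, both copies of a gene for a protein at the messenger RNA entry, had summits 995 to 1012 bp and 890 to 899 bp inside the gene in 4 and 3 libraries. RPS0B and RPS6A also had a body summit in each library, and at RPS0B it ranged from 656 to 929 bp.

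At a further set of genes the summit lay beyond the 500 bp. RPS26A, for a protein at the messenger RNA exit, had summits 583, 594 and 589 bp upstream in wild-type replicate 1 and the yaf9d libraries. The folds were 4.79, 9.21 and 5.46. In wild-type replicate 2 the RPS26A peak was 1269 bp wide, with a fold of 2.15 and its summit 174 bp inside the gene. The copy RPS26B had summits 580 and 579 bp upstream in wild-type replicate 2 and yaf9d replicate 1, with folds of 2.68 and 2.82. RPS25B, for a protein known for internal initiation of translation, had summits 593, 622 and 597 bp upstream. RPS29A, for a small zinc-binding protein, had summits 654 and 644 bp upstream in wild-type replicate 2 and yaf9d replicate 1. These distances are to the coding start, and transcription start sites were not used.

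Of the 24 duplicated pairs, 10 had a promoter peak at both copies in all 4 libraries. Among them were RPS0, RPS1, RPS4, RPS6, RPS7, RPS16, RPS23 and RPS24. In 6 of these 10 both summits lay in the promoter in every library, which allows the copies to be ranked within a list. Copy A had the higher fold in all 4 lists in RPS7, RPS16 and RPS24. Copy B had it in RPS0 and RPS1, and in RPS23 copy A was higher in 3 of 4. RPS16A, at 5.08, 8.58, 12.2 and 7.89, stood above RPS16B, at 2.66, 3.25, 4.50 and 3.28. The RPS16A summit lay a median of 495 bp from RPS16A and 226 bp from RPL13B, the gene it faces. The order of the RPS16 copies and the distance between their summits thus involve a peak nearer to RPL13B. RPS7A stood above RPS7B, at 3.15, 3.67, 5.53 and 3.21. RPS24A, at 4.50, 6.08, 8.21 and 5.38, stood above RPS24B, at 2.85, 3.78, 7.07 and 3.67. The copies also differed in summit position. The median difference between A and B ran from 23.5 bp in RPS23 to 312 bp in RPS16, above the 6 to 58 bp span of a single gene over the libraries in RPS16, RPS0, RPS7, RPS24 and RPS1. RPS0A had its median summit 369 bp upstream and RPS0B 246 bp.

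**Figure D4:**
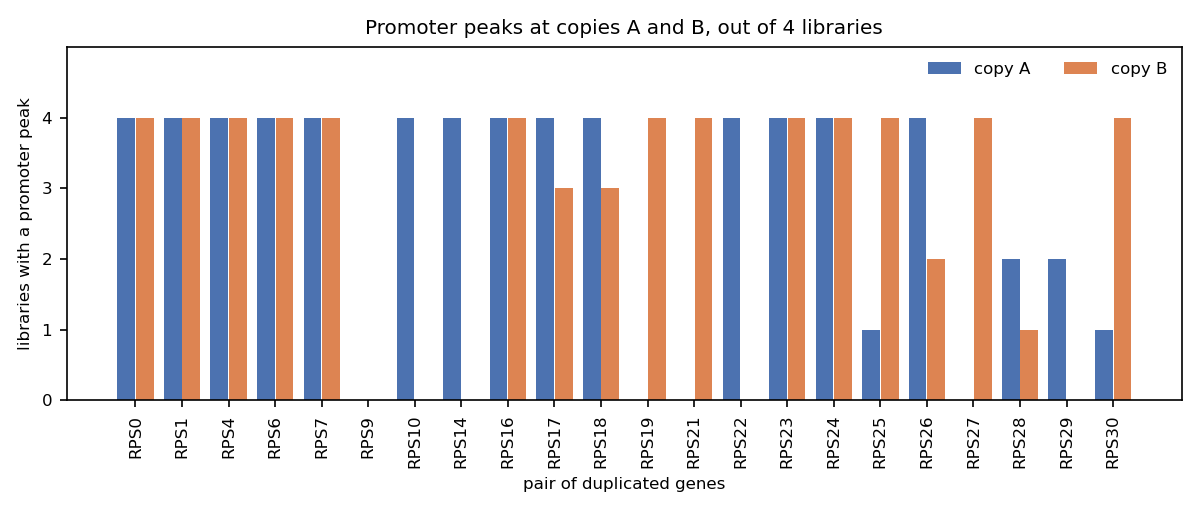
Number of libraries (vertical axis, of 4) with a promoter peak at copy A and copy B of 22 duplicated pairs. Both bars reach 4 in 8 of the pairs plotted, and in 6 pairs 1 bar reaches 4 while the other is at 0.

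In 8 pairs the copies differed by 3 or 4 libraries. RPS10A, for a protein near the messenger RNA entry, had folds of 4.88, 6.66, 9.56 and 5.63, and RPS10B had no peak. RPS14A, for a protein of the platform, had 3.12, 4.14, 4.88 and 2.99, and RPS14B had no promoter peak. RPS22A had 3.67, 1.75, 8.02 and 4.77, and RPS22B had none. The 1.75 in wild-type replicate 2 came from a peak of 1879 bp with its summit downstream of RPS22A. In the other libraries the RPS22A summit lay nearer to RPL39, the gene it faces. In other pairs copy B was the called one. RPS19B, for a protein whose human counterpart is mutated in Diamond-Blackfan anaemia, had 4.02, 5.98, 7.95 and 1.76, and RPS19A had none. In yaf9d replicate 2 the RPS19B summit lay 868 bp upstream. RPS21B, given above, had 4 calls and RPS21A had 0. RPS27B had 4.11, 5.99, 8.57 and 6.03, and RPS27A had none.

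The other pairs of this kind had calls at both copies. RPS25B had folds of 3.49, 2.05, 4.46 and 3.34, and RPS25A had 1.82 in wild-type replicate 2 alone. In that library the summits lay 79 bp inside RPS25B, in a peak of 1963 bp, and 115 bp inside RPS25A. No summit of either copy lay within the promoter. RPS30B had 4.10, 5.78, 8.09 and 4.42, and RPS30A had 2.26 in wild-type replicate 2 alone. The RPS30B summits also lay 128 to 145 bp inside the neighbouring FYV12. Copy A was the called copy in RPS10, RPS14 and RPS22, and copy B was the one with more calls in the remaining 5. The number of pairs with exactly 1 called copy was 12 and 8 in wild-type and 9 and 10 in yaf9d (means 10 ± 2.83 and 9.5 ± 0.707, SD, n = 2; exact permutation p = 1).

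The remaining 6 pairs were mixed. RPS9 had no promoter peak at either copy. RPS17A had folds of 4.09, 5.20, 8.14 and 5.15 with summits 196, 194, 234 and 218 bp upstream. RPS17B had 2.03, 1.67 and 2.08 in 3 libraries, with summits 55, 42 and 31 bp inside the gene, so its calls were peaks at the start of the coding sequence. RPS18A had 4.81, 7.16, 9.82 and 5.42, and RPS18B had 3.12, 4.51 and 3.004 in wild-type replicate 2 and the yaf9d libraries. RPS28A had 2.64 and 2.57 in wild-type replicate 1 and yaf9d replicate 2, with summits 99 and 90 bp inside the gene. RPS28B had 1.98 in wild-type replicate 2, with its summit 53 bp inside the gene. RPS29A had 3.19 and 4.98 in 2 libraries, and RPS29B had no peak. RPS26 is given above.

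Wild-type replicate 2 had wide peaks at 5 genes whose summit lay in the promoter in the other 3 libraries. Among them were RPS4B, RPS6B and RPS22A. The 5 genes had peak widths of 1405 to 1879 bp and folds of 1.53 to 1.80. RPS6B showed the contrast, with 5.33, 10.1 and 4.12 in the other libraries and summits 192, 194 and 196 bp upstream, against 1.68 at a summit 583 bp inside the gene. A list gives 1 fold per peak, at its summit, so the fold over the promoter of these genes in wild-type replicate 2 is not known. At RPS22A the wide peak reached into the neighbouring RPS14B, and its summit was the one counted inside RPS14B.

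Of the 56 RPS genes, 24 had the start of another protein-coding gene within 1000 bp on the opposite strand. The share of all genes with such a divergent partner was not counted. The 500 bp promoters of such a pair overlap, so a peak over the RPS promoter readily counts for both genes. In all 4 libraries a single peak overlapped both promoters at 15 of these 24, and in at least 1 library at 18. The remaining 6 had no RPS promoter peak in any library. They were RPS2 (facing MON1), RPS9A (MOT1), RPS9B (NTC20), RPS14B (SOP4), RPS29B (TSR1) and RPS31 (SEC10). The 32 RPS genes without such a partner had calls in all 4 libraries at 18, a difference that was not tested. A peak was shared in 67 combinations of gene and library, which were all those with an RPS promoter peak at these 24 genes. Sharing thus adds nothing to the promoter calls, and its share over other divergent genes was not counted. In 52 of the 67 combinations the summit lay between both coding starts, and in 43 of the 52 it was nearer to the RPS gene. These combinations repeat the same genes over libraries and are not independent. The rest of the 52 came from RPS16A, RPS22A and RPS29A.

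In several wide gaps the summit lay nearer to the RPS gene than to its partner. RPS1B faces TEM1, the GTPase of the mitotic exit network, across 605 bp, with folds of 4.66, 5.89, 11.0 and 5.48. The summit lay a median of 211.5 bp from RPS1B and 394.5 bp from TEM1. RPS21B faces LCB3, a sphingolipid phosphatase gene, across 914 bp, with the summit at 237.5 and 677.5 bp. RPS0B faces FRE8, a gene of the metal reductase family, across 824 bp, with the summit at 246 and 579 bp. RPS4A, at folds of 3.21, 4.83, 6.45 and 4.39, faces YJR146W across 816 bp, with the summit at 230.5 and 586.5 bp. RPS4B, at 3.73, 1.53, 8.36 and 5.24, faces MNL1 across 788 bp, with the median over all 4 summits at 315.5 and 473.5 bp. The RPS start was the nearer one in each of these pairs, apart from the wide peak of RPS4B in wild-type replicate 2, whose summit lay inside the gene.

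In some gaps of 466 to 555 bp the summit lay a median of 207 to 262 bp from the RPS start. That distance was similar in most of the wide gaps above. Other short gaps, those of RPS30B, RPS28A and RPS17B, had the summit outside the gap and are given below. RPS23A and YGR117C are 494 bp apart, with the summit at 237.5 and 257.5 bp. RPS23B and NAT3, an N-terminal acetyltransferase gene, are 466 bp apart, with the summit at 213 and 254 bp. RPS27B and ECM12 are 555 bp apart, with 262 and 294 bp. RPS10A and YOR292C are 515 bp apart, with 216 and 300 bp. RPS17A and YML6, a gene of the mitochondrial large ribosomal subunit, are 523 bp apart, with 207 and 317 bp. A peak in the middle of such a gap cannot be assigned to 1 of the genes.

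Some RPS genes face another ribosomal protein gene. RPS16A faces RPL13B, and the shared summit lay 495 bp from RPS16A and 226 bp from RPL13B. RPS16B faces RPL13A, the second copy of the same pair, and there the summit lay 182 bp from RPS16B and 453 bp from RPL13A. The summit was thus nearer to the RPL gene in the first case and to the RPS gene in the second. RPS22A faces RPL39, with medians of 380 and 251 bp over all 4 libraries. In 3 of them the summit was nearer to RPL39, and in wild-type replicate 2 it was that of the wide peak, outside the shared promoter. RPS15, a single-copy gene for a protein of the head, faces RPP2A, a gene of the ribosomal stalk. Its folds were 2.18, 1.78, 1.82 and 2.09, and the summit lay 930 to 934 bp from RPS15, which is 210 to 214 bp inside RPP2A. The promoter call of RPS15 thus came from a peak with its summit in the neighbouring gene.

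The remaining divergent genes had other positions. RPS30B, at the folds above, had its summit 128 to 145 bp inside FYV12, an open reading frame 78 bp away. RPS29A had its summit nearer to REH1, a gene for maturation of the large subunit, in both libraries with a call. RPS17B, facing ADA2 of the SAGA coactivator, and RPS28A, facing the glutaminyl-tRNA synthetase gene GLN4, had summits inside the RPS gene.

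**Figure D5:**
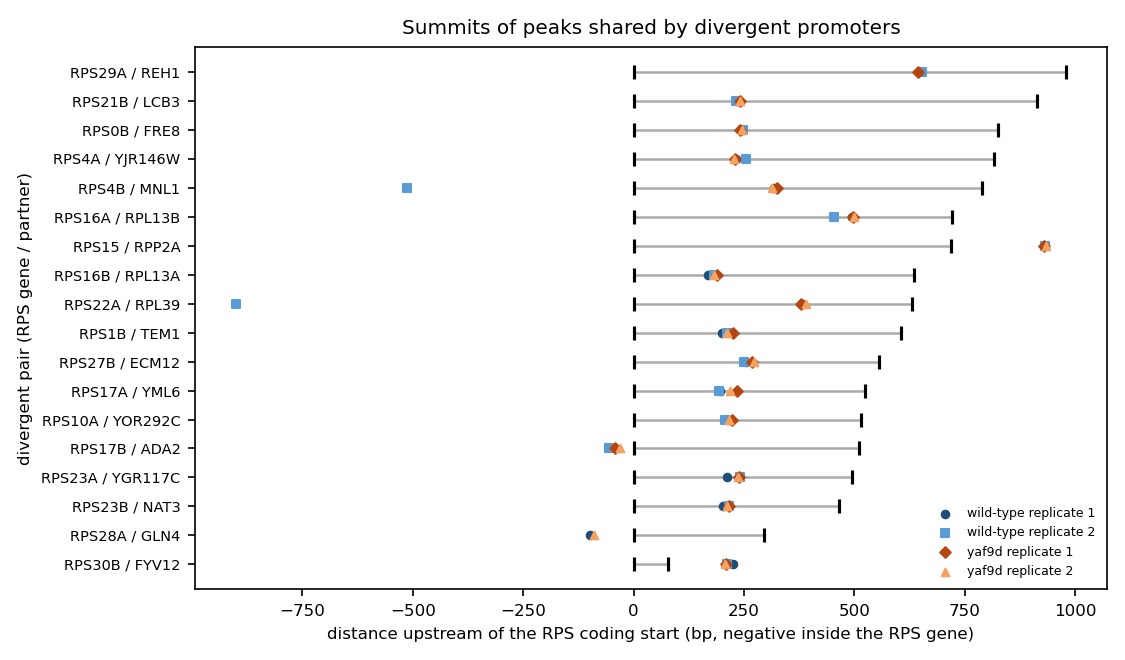
Summits of peaks that overlap both promoters of a divergent pair, as the distance upstream of the RPS coding start (horizontal axis, bp), with black ticks at the RPS start (0) and the partner's start. The pairs are ordered by the length of the gap, and in pairs such as RPS1B, RPS4A, RPS21B and RPS0B the 4 libraries lie near 200 to 250 bp from the RPS start. Between both starts, RPS16A, RPS22A and RPS29A lie nearer to the partner, and the summits of RPS15 and RPS30B lie beyond the partner's start.

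No promoter peak was called in any library at 13 genes. For 6 of them, RPS10B, RPS19A, RPS21A, RPS22B, RPS27A and RPS29B, no peak touched the gene body either. The nearest summit to RPS10B in any library was 10691 bp away, and those of RPS22B and RPS27A were 5732 and 5192 bp away. RPS21A had one 3557 bp away and RPS29B one 1959 bp away. At RPS19A the nearest one lay 759 bp upstream in wild-type replicate 2.

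The other 7 had peaks over the coding sequence alone. RPS2, for a protein at the messenger RNA entry that bears on decoding accuracy, had body folds of 1.34, 1.35 and 1.31 in wild-type replicates 1 and 2 and yaf9d replicate 2. RPS9A had 1.62, 1.75, 1.81 and 2.12 in the 4 libraries, and RPS9B had 1.86, 1.75 and 1.87 in 3. RPS12, for a protein of the beak, had 1.94 and 1.91 in wild-type replicate 2 and yaf9d replicate 2. RPS31, which is made as a fusion with ubiquitin, had 1.86 and 2.24 in the same libraries. RPS14B had 1.44 and 1.75 in the wild-type libraries, and RPS13 had 1.74 in wild-type replicate 2. The nearest upstream summit was at least 1797 bp away for each of these 7 genes in each library with one on that side.

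Among the 8 single-copy genes, RPS3, for a protein at the messenger RNA entry, had body folds of 1.32, 1.67 and 1.42 in 3 libraries and a promoter call in yaf9d replicate 1 alone, from a peak whose summit lay 1268 bp upstream. RPS20 had a promoter call in wild-type replicate 1 alone, with a fold of 1.67 and a summit 907 bp upstream.

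Related genes were read the same way. Of 81 genes for proteins of the large subunit, 52 and 57 had a promoter peak in wild-type and 47 and 47 in yaf9d. These are 64.2%, 70.4%, 58.0% and 58.0%, against 15.9%, 14.3%, 11.2% and 13.6% of all genes. A promoter peak was called in all 4 libraries at 43 of 81 (53.1%), against 4.83% of all genes. RPS genes stood at 58.9%, and that difference was not tested. In both wild-type libraries and neither yaf9d library a promoter peak was called at 4 (4.94%), near the 3.23% of all genes. ASC1, the gene of a small subunit protein outside the RPS names, had 1 call, with a fold of 1.64 in wild-type replicate 2. Of 31 genes for the mitochondrial small subunit, 8, 9, 3 and 3 had a promoter peak. These are 25.8%, 29.0%, 9.68% and 9.68%, against 15.9%, 14.3%, 11.2% and 13.6% of all genes. In all 4 libraries it was present at 1 gene (3.23%), against 4.83% of all genes. In both wild-type libraries and neither yaf9d library it was present at 5 (16.1%), against 3.23% of all genes, which was not tested. Among 11 regulators of ribosomal protein genes, 4, 3, 1 and 2 had a promoter peak. These are 36.4%, 27.3%, 9.09% and 18.2%, against the same shares of all genes, and in a list of 11 genes 1 call is 9.09%. REB1, for a general regulatory factor, was the 1 with a call in each library, at folds of 1.99, 1.99, 2.57 and 2.46. RAP1 had a call in wild-type replicate 1 (1.95), SFP1 in 3 libraries (3.16, 2.91 and 1.95) and TOR1 in the wild-type libraries (2.72 and 1.72). TOR1 was the 1 regulator called in both wild-type libraries and neither yaf9d library (9.09%, against 3.23% of all genes). FHL1 and IFH1 had no call.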

How the data were processed

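Swc4-13myc ChIP-seq peaks of 4 libraries were used, grouped by the sample titles. The submitters' processing notes name MACS2 (version 2), SAMtools 1.4 and BWA 0.7.15-r1140. The sources used here do not give their roles, the control, the peak threshold or the build. The authors deposited 1 peak list per library, with the interval, the summit, a score (not used here), a fold ratio, and −log10 p-values and q-values.

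Genes came from the RefSeq table of R64, with strand read from the systematic name. Its coordinates are not printed. As a check of position, 298 summits lay within 300 bp of a tRNA gene's midpoint, 88.3% of them within 100 bp. RPP1 was left out of the large subunit list, since its symbol names a ribonuclease P subunit. Pileups were searched as whole numbers that give the listed −log10 p-value (Poisson) within 0.001, and were found for 99.5% to 99.9% of the peaks of a list. Genes with values in every library were named by a rule. It takes the 8 best mean ranks, genes with a shared divergent promoter, pairs whose copies differ by 3 or more libraries, genotype-specific genes and genes with body peaks alone. Other genes are named to account for the members, and a few genes are counted but not reported here by name. Members and lists were chosen with earlier results of these data known. Motif counts, planned, were not made, and no sequence was used here. Genotypes were compared by exact permutation of the 4 library values. The code was tested on simulated data (Python 3.11.15, pandas 2.3.3, SciPy 1.17.1).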

Additional observations from a re-analysis of the deposited data

Results flagged for a closer look

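Outside the nuclear chromosomes, yaf9d replicate 2 had 39 peaks on the mitochondrial chromosome and the other 3 lists had 0. It was noted because these peaks lie outside the measurement described here and exceed the level of the wild-type lists.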

How the results depend on the processing

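The alternatives were promoters of 250 and 1000 bp, peaks with a −log10 q of 5 or more or a fold of 2 or more, summits in place of overlaps, leaving out each library, and, chosen after seeing the data, summits within 1000 bp. The difference in promoter genes (yaf9d minus wild-type, -0.5) became 2.5 with a fold of 2 or more, 2 with summits in the window and 5.5 with summits within 1000 bp, and ranged from -3 to 2 with 1 library left out. No direction is given for it. The difference in median rank (-1.05 percentage points of the list) became 0.548, 0.389 and 0.983 in the same order, and ranged from -3.06 to 0.955. Its sign varied and the lists differ in length, so no direction is given for the rank either. The difference in pairs with exactly 1 called copy (-0.5) ranged from -2.5 to 1.5 with 1 library left out and was -3 with summits within 1000 bp. The difference in summit position (-14.75 bp) ranged from -26.5 to -3 with 1 library left out and was -2 with summits in the window. Genes with no promoter call rose in number from 13 to 26 with summits in the window, since an overlap no longer counts. The causes of the other changes were not tested. The difference in body genes stayed negative, from -24 to -3 with 1 library left out and -6 with summits. The number of genes called in every list was 22 to 35. The replicate numbers do not come from a stated pairing, and same-numbered libraries did not deviate together (correlation -0.029 over 6002 genes). With the replicate block the differences were the same, with exact sign-flip p of 1 for promoter genes and 0.5 for body genes, the smallest 2 pairs allow. Depth limits weak peaks, since a promoter without a call may lie below the authors' threshold.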
